A study of Mus musculus with 6 samples.

Results

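The lymphoid and B lineage programme was followed through 32 named genes: transcription factors that prime progenitors for the lymphoid fate, the transcription factors, receptor chains and signalling proteins of B cells, surface proteins of both stages, and the genes Cnn3 and Wfdc17. Members were taken by name, without immunoglobulin segments or plasma cell genes, and each gene was read from its brightest probe set with a single symbol. Of these, 30 had a row among the 22180 genes of the table, and Tcf7 and Il2rg are not analysed here. Expression was measured on 6 Affymetrix Mouse Gene 2.0 ST arrays of LSK cells, the lineage-negative, Sca-1-positive, c-Kit-high fraction of bone marrow that holds stem cells and multipotent progenitors, sorted from 8-week-old male mice. The groups were 3 WT mice and 3 mice with a tamoxifen-inducible Ctcf conditional knockout. All were given tamoxifen by injection, 2 mg daily on 3 days, and their marrow was taken 24 hours later. The series design names CreER mice beside the knockout, while the genotype label of the controls is WT, so the recombinase status of the controls is unclear. The deletion is not restricted to LSK cells by anything the labels state, and the exons removed are not given.

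Lymphoid fate begins in multipotent progenitors that express Flt3 and then the interleukin-7 receptor. The factors Ikaros (Ikzf1), E2A (Tcf3), Bcl11a and Satb1 open lymphoid genes at low level before any lineage choice is fixed, after which EBF1 and PAX5 commit cells to the B lineage and switch on the pre-B cell receptor. CTCF, the deleted factor, binds DNA at insulators and loop anchors, including those of antigen receptor loci.

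Ctcf itself stood at a log2 value of 8.35, 8.59 and 8.73 on the WT arrays and 7.58, 7.78 and 7.86 on the knockout arrays, a difference of -0.82 that limma placed at an adjusted p of 0.104. Array medians lay between 5.99 and 6.07, and correlations between arrays across genes between 0.979 and 0.989. Among the LSK markers, Cd34 averaged 11.97 ± 0.05 (WT) and 11.95 ± 0.14 (knockout), Meis1 10.51 ± 0.32 and 10.47 ± 0.12, and Hlf 10.40 ± 0.11 and 10.25 ± 0.15 (SD, n = 3 each); Ly6a, which encodes Sca-1, is not analysed here. Of the 8 measured LSK markers 6 had a difference below 0 and 2 above, with a median of -0.03 and none called. The groups did not overlap for Kit, the sorting marker, at -0.22 (adjusted p = 0.727), and for Slamf1, at 0.33 (unadjusted p = 0.0200, adjusted p = 0.532). Over all genes limma called 16 at an adjusted p under 0.05, 10 lower in the knockout (0.0451% of genes) and 6 higher (0.0271%). The arrays are labelled biological replicates, and their number limits the precision of every value.

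In the knockout, nearly all measured genes of the programme had a lower mean than in WT, but a single gene passed the test. Cnn3, which encodes the actin-binding calponin 3, fell by 1.20 on the log2 scale (SE 0.13, limma adjusted p = 0.0269). Of the 30 members 29 had a difference below 0, where 45.3% of all genes did. The median of the members was -0.33, and that of all genes 0.02. Differences of -0.5 or below were found for 10 members and for 1.19% of all genes. All knockout arrays lay below all WT arrays for 6 members (Cnn3, Fcmr, Blk, Ebf1, Lef1 and Pou2f2), against 5.32% of all genes. At an unadjusted p under 0.05 by limma 6 members were lower (Cnn3, Fcmr, Blk, Ms4a1, Cd79a and Satb1) and 0 higher, against 3.08% and 5.03% of all genes. Because the list was drawn up with results of these arrays known, these counts describe it and do not support its direction. Counts of groups of members and of other lists, given below, stand beside the same shares of all genes.

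**Figure D1:**
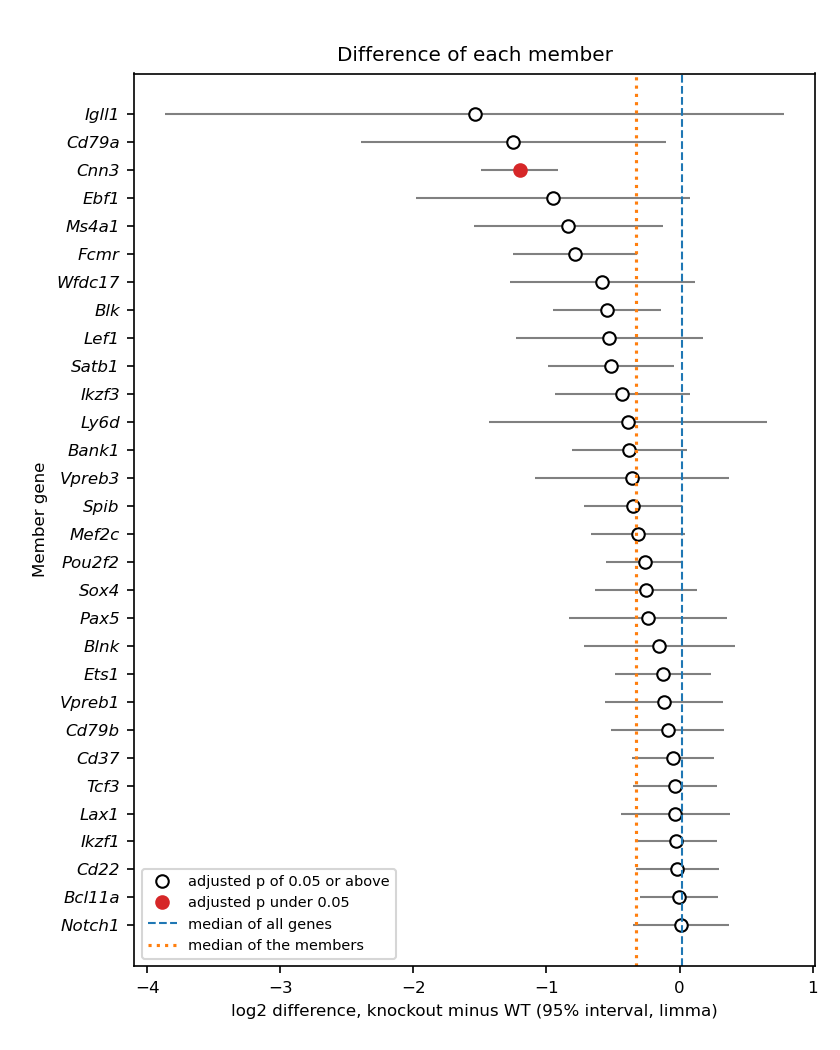
Log2 difference, knockout minus WT, of the 30 measured members with its 95% interval from limma; the filled point marks the gene with an adjusted p under 0.05, the dashed line the median of all genes and the dotted line the median of the members. Cnn3 has the third largest difference and the narrowest interval among the 10 members at -0.5 or below, while the interval of Igll1 runs from -3.86 to 0.78.

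The members did not vary as a block. Some were low on all 3 knockout arrays, some were high on WT replicate 1 alone, and some were lowest on replicate 3 in both groups. WT replicate 1 was the highest array for 15 members, WT replicate 2 for 13, WT replicate 3 for 1 and the knockout arrays together for 1, Tcf3. Knockout replicate 3 was the lowest array for 11 members. Without WT replicate 1 the median of the members was -0.21 instead of -0.33, and 23 of 30 had a difference below 0. Of all genes 45.1% had a difference below 0 in that fit. At an unadjusted p under 0.05 by limma 4 members were lower, namely Satb1, Blk, Fcmr and Cnn3, against 2.28% of all genes. In these bulk samples, fewer cells of a type and less RNA per cell cannot be told apart.

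**Figure D2:**
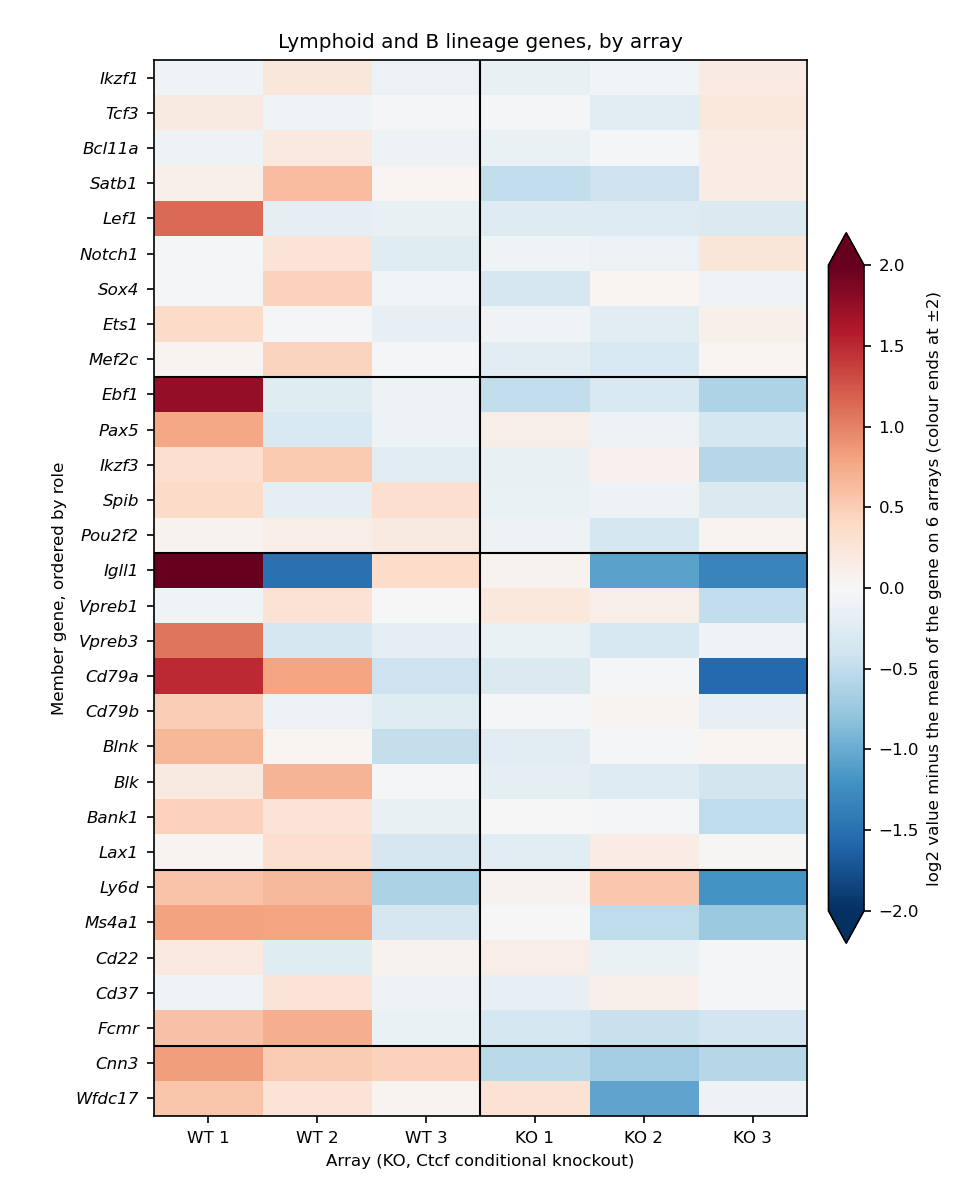
Heat map of the 30 measured members (rows, in order of role, with lines between roles) on the 6 arrays (columns); colour is the log2 value minus the mean of the gene on all arrays, with values beyond 2 drawn in the end colours. Ebf1, Igll1, Lef1 and Vpreb3 are highest on WT 1, Cd79a and Ly6d are lowest on KO 3, and Cnn3 separates the groups.

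Promoter windows of the members were searched for short motifs of factors of this programme and of CTCF, as a description only. Among the 5 members with the largest differences that have a window, 4 held at least 1 searched motif and are shown: Cnn3, the called gene, and Igll1, Cd79a and Fcmr. The windows of Ebf1 held none. The share of all windows with any of the motifs was not counted. The windows are RefSeq's of build GRCm38.p6, each with 250 bases before and 50 bases after a start site, written 5′ to 3′ on the strand of the gene, with motif matches in capitals. They lie at chr3:121426291-121426590 (plus strand) for Cnn3, chr16:16863936-16864235 (minus strand) for Igll1, chr7:24897247-24897546 (plus strand) for Cd79a and chr1:130865527-130865826 (plus strand) for Fcmr.
Cnn3: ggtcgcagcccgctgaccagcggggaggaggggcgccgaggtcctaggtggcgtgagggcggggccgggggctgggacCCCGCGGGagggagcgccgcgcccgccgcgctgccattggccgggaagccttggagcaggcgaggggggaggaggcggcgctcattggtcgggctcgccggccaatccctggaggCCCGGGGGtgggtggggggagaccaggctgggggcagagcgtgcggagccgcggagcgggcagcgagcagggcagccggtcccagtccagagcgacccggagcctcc
Igll1: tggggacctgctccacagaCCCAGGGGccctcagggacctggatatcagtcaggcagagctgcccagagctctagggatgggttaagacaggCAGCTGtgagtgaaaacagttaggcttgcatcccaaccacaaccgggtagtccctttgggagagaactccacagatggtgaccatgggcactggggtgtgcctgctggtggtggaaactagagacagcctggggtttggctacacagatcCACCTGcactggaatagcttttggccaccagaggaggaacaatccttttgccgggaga
Cd79a: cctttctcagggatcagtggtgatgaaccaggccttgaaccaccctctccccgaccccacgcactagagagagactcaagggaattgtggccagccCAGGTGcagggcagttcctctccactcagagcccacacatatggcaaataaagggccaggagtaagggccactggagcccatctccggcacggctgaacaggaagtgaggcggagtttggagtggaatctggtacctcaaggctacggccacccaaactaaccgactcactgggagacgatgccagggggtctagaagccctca
Fcmr: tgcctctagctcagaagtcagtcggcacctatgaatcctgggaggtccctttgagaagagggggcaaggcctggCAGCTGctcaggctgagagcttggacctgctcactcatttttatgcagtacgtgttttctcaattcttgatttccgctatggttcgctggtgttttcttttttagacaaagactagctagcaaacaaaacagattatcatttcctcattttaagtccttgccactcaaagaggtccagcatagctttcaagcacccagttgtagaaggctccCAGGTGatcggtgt

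In the Cnn3 window the capitals are 2 matches to CCCNNGGG, the palindromic core bound by EBF1, starting 172 and 57 bases before the start site. The Igll1 window held the EBF1 core 231 bases before the start site, the E-box CAGCTG at 158 bases and the E-box CAGGTG, on the opposite strand, at 8 bases. E-boxes are the sites of E proteins such as E2A. The Cd79a window held CAGGTG 154 bases before the start site. The Fcmr window held CAGCTG at 176 bases before it and CAGGTG 37 bases into the transcribed side. Over both strands the EBF1 core was found in 7 of 36 windows of members (19.4%) and in 13.7% of all 32851 windows, CAGGTG in 11 of 36 (30.6%) against 20.2%, and CAGCTG in 5 of 36 (13.9%) against 16.3%. The octamer ATGCAAAT, bound by the Oct factors that include Pou2f2, was found in the windows of Blnk and Vpreb3 (1.74% of all windows). The PU.1 word GAGGAAGT was found in those of Cd37 and Satb1 (3.20% of all windows), and AGGGGGCG, a short core of the CTCF motif, in 3 windows, of Pou2f2 and Satb1 (6.07% of all windows). A match describes the letters and is not a bound site. The search took exact letters only, so a window without a match is not shown to lack a site for that factor. The 36 windows belong to 24 of the 30 members (all but Blk, Cd79b, Ets1, Ikzf3, Ly6d and Ms4a1), and windows of 1 gene can overlap.

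Of the factors that act before B lineage commitment, Satb1 and Lef1 had the largest differences and several others lay near 0. Ikzf1, the founding Ikaros factor, stood at 9.94, 10.24 and 9.89 in WT and 9.86, 9.96 and 10.17 in the knockout. Its groups overlap, and its difference of -0.03 had a 95% interval from -0.33 to 0.28. Tcf3, which encodes the E proteins E12 and E47, stood at 8.84, 8.57 and 8.62 in WT and 8.62, 8.44 and 8.87 in the knockout, with a difference of -0.03 (95% interval -0.35 to 0.28). Bcl11a, a zinc finger repressor needed for lymphoid development, differed by -0.0047 (95% interval -0.30 to 0.29), and Notch1, the receptor that directs the T cell fate, by 0.01 (95% interval -0.35 to 0.37). The signs of these 4 differences turned when single arrays were left out. The limma intervals leave room for changes of up to about 0.4 log2 units in each of them.

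Satb1, a chromatin organiser that promotes lymphoid output from stem cells, stood at 8.82, 9.33 and 8.75 in WT and 8.21, 8.29 and 8.85 in the knockout. Knockout replicates 1 and 2 lay below every WT array, and replicate 3 lay above WT replicates 1 and 3. The difference was -0.51 (SE 0.21, unadjusted p = 0.0361, limma adjusted p = 0.584), and -0.33 without WT replicate 2. Its unadjusted p was no longer under 0.05 when WT replicate 2, knockout replicate 1 or knockout replicate 2 was left out. Lef1, an HMG-box factor of the Wnt pathway used by T and early B cells, read 7.55, 6.23 and 6.27 in WT and 6.16, 6.17 and 6.13 in the knockout. Its groups did not overlap, but its difference of -0.53 became -0.09 without WT replicate 1. Mef2c, a MADS-box factor that favours lymphoid over myeloid fate, differed by -0.31 (95% interval -0.66 to 0.04) and its second probe set by -0.38. Without WT replicate 2 the first value was -0.16. Sox4, an HMG-box factor of pro-B cell survival, differed by -0.25 and by -0.23 on its second probe set, and by -0.0845 on the first without WT replicate 2 and -0.15 without knockout replicate 1. Ets1 differed by -0.13. The second probe set of Bcl11a differed by -0.09. In all, 8 of the 9 measured factors of this group had a difference below 0, with a median of -0.13 and 0 called by limma; 1 of them, Satb1, had an unadjusted p under 0.05.

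The B lineage factors were all lower on average, with a median difference of -0.35, and several varied widely among the WT arrays. Ebf1, the pioneer factor of B cell specification, read 7.76, 5.76 and 5.90 in WT and 5.50, 5.69 and 5.37 in the knockout. WT replicate 1 stood far above the next array, and the lowest WT array lay just above the highest knockout array. The difference was -0.95 (SE 0.45, limma adjusted p = 0.642), and -0.30 without WT replicate 1. Pax5, which holds B cells in their lineage and is a target of EBF1, read 6.60, 5.53 and 5.72 in WT and 5.95, 5.71 and 5.48 in the knockout, so that the groups overlapped. Its difference was -0.24 (95% interval -0.83 to 0.35) and turned to 0.09 without WT replicate 1. Ikzf3, the Ikaros family member Aiolos of pre-B and later cells, differed by -0.43, Spib, an ETS factor of B cells and plasmacytoid dendritic cells, by -0.35, and Pou2f2, the octamer factor Oct-2, by -0.26. The 3 WT arrays of Pou2f2, at 7.55, 7.61 and 7.66, lay close together and above the knockout arrays at 7.38, 7.13 and 7.54, and the difference was -0.15 without knockout replicate 2. Ikzf3 was between -0.64 and -0.25 with 1 array left out, nearest 0 without knockout replicate 3, and Spib between -0.53 and -0.25. No factor of this group passed by limma, and 0 of 5 had an unadjusted p under 0.05. For 4 of the 5 the mean lay below 6.29, the median of the means of all genes, where RMA compresses differences.

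Of the pre-B cell receptor genes, Igll1 varied most among the WT arrays. Igll1 encodes lambda 5, which pairs with a VpreB protein as the surrogate light chain; it read 11.01, 6.09 and 7.94 in WT and 7.65, 6.51 and 6.26 in the knockout. WT replicate 1 was the highest of all arrays by a wide margin and WT replicate 2 was the lowest of all 6, so the spread in WT (SD 2.48, n = 3) exceeded the difference of -1.54 (SE 1.02, limma adjusted p = 0.761). Without WT replicate 1 the difference was -0.21, and without WT replicate 2 it was -2.67. Vpreb1, the partner of lambda 5, did not share the high value: it read 4.78, 5.15 and 4.86 in WT and 5.07, 4.99 and 4.37 in the knockout, below the median of the means of all genes. Vpreb3, a related chaperone of the pre-B cell receptor, read 6.04, 4.64 and 4.76 in WT and 4.83, 4.65 and 4.89 in the knockout, high on WT replicate 1 alone.

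Cd79a and Cd79b form the signalling pair Ig-alpha and Ig-beta, and the difference between their values was not tested. Cd79a read 9.64, 8.93 and 7.74 in WT and 7.85, 8.12 and 6.60 in the knockout. Replicate 3 was the lowest array of each group, and WT replicate 3 lay below knockout replicates 1 and 2. The difference was -1.25 (SE 0.50, unadjusted p = 0.0360, limma adjusted p = 0.584). It was -0.79 without knockout replicate 3, -0.81 without WT replicate 1 and -0.16 with a score of plasma cell markers as a term in the model. Cd79b stood at 10.42, 9.81 and 9.69 in WT and 9.90, 9.99 and 9.76 in the knockout, with a difference of -0.09 (95% interval -0.51 to 0.33). Blk, a Src family kinase of the B cell receptor, read 6.83, 7.34 and 6.61 in WT and 6.46, 6.39 and 6.29 in the knockout, with groups that did not overlap and a difference of -0.55 (SE 0.18, unadjusted p = 0.0140, limma adjusted p = 0.492). With 1 array left out Blk moved between -0.70 and -0.34, nearest 0 without WT replicate 2. Bank1, a scaffold of B cell receptor signalling, differed by -0.38, and by -0.22 without knockout replicate 3 and -0.25 without WT replicate 1. Blnk, the adaptor that links the receptor to phospholipase C, differed by -0.15, and Lax1, an adaptor that restrains lymphocyte signalling, by -0.03. All 9 measured genes of this group had a difference below 0, with a median of -0.36, 0 called by limma and 2 at an unadjusted p under 0.05.

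Among the surface proteins Fcmr and Ms4a1 had the largest differences, and none passed. Fcmr, the receptor for the Fc part of IgM, read 6.81, 6.96 and 6.10 in WT and 5.88, 5.78 and 5.84 in the knockout. Its knockout arrays lay close to one another and below every WT array. The difference was -0.79 (SE 0.21, unadjusted p = 0.00434, limma adjusted p = 0.365), and between -1.05 and -0.62 with 1 array left out. Ms4a1, which encodes CD20, read 6.47, 6.45 and 5.34 in WT and 5.68, 5.16 and 4.93 in the knockout, with a difference of -0.83 (SE 0.31, unadjusted p = 0.0257, limma adjusted p = 0.556). WT replicate 3 of Ms4a1 lay below knockout replicate 1, so its groups overlap. With 1 array left out Ms4a1 moved between -1.21 and -0.64. Its unadjusted p by limma stayed under 0.05 only without WT replicate 3 or without knockout replicate 1. Ly6d, which marks lymphoid progenitors biased to the B lineage, read 8.65, 8.72 and 7.45 in WT and 8.14, 8.62 and 6.89 in the knockout. Its replicate 3 values were the lowest of both groups, and its difference of -0.39 (95% interval -1.43 to 0.65) was smaller than the spread within either group. Cd22, an inhibitory lectin of B cells, differed by -0.02 and Cd37, a leukocyte tetraspanin, by -0.05. All 5 measured genes of this group had a difference below 0, with 0 called by limma and 2 at an unadjusted p under 0.05. The means of Fcmr, Ms4a1 and Cd22 over all arrays lay below 6.29, the median of the means of all genes, where RMA compresses differences.

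Cnn3 and Wfdc17 were listed apart from the genes of the B cell receptor and its signalling. Cnn3 stood at 10.20, 9.88 and 9.84 in WT and 8.83, 8.69 and 8.81 in the knockout. The groups were far apart, and the spread was small in both (SD 0.20 and 0.08, n = 3 each). The knockout mean was 43.6% of the WT level, with a 95% interval of the log2 difference from -1.49 to -0.91. With 1 array left out the difference lay between -1.27 and -1.08, but the call was lost in each of the 6 fits, with adjusted p between 0.0545 and 0.156 by limma. Wfdc17, a small secreted protein with a whey acidic protein domain, stood at 11.87, 11.56 and 11.37 in WT and 11.60, 10.25 and 11.20 in the knockout. Knockout replicate 2 was lowest, the groups overlapped, and the difference of -0.58 (SE 0.31, limma adjusted p = 0.681) was -0.20 without it.

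**Figure D3:**
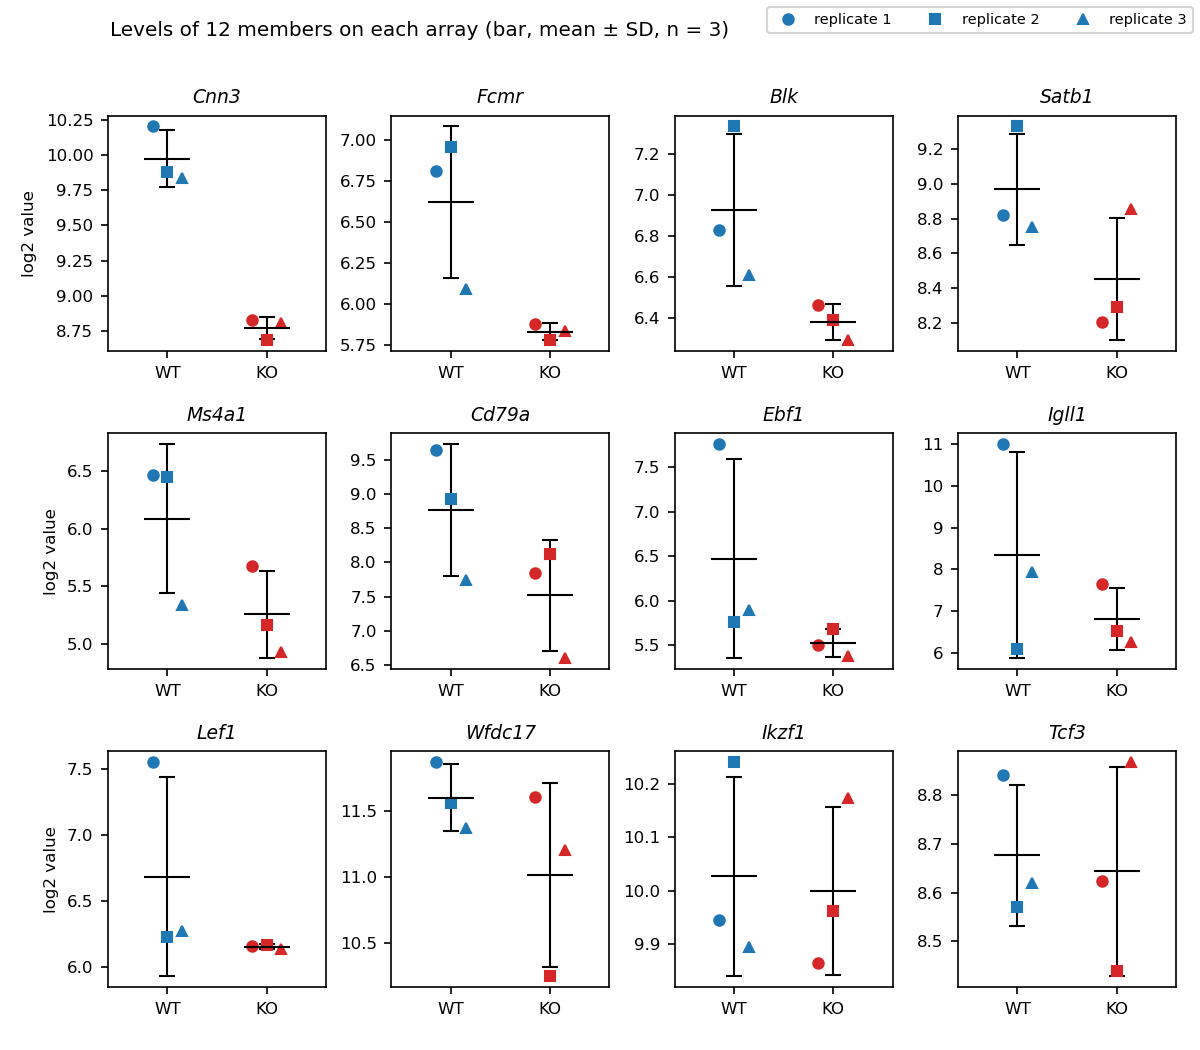
Log2 values of 12 members on each array (symbols, WT in blue and knockout, KO, in red; each panel has its own axis, which does not start at 0), with bars for the mean ± SD of 3 arrays. Cnn3, Fcmr and Blk separate the groups, WT replicate 1 (circle) stands alone for Ebf1, Igll1 and Lef1, and the groups of Ikzf1 and Tcf3 overlap.

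The arrays on which members stood apart also differed in markers of other cells. WT replicate 1 lay at least 1 log2 unit above both other WT arrays for 4 of 30 members (Ebf1, Igll1, Lef1 and Vpreb3), against 0.135% of all genes, a pattern described after the values were seen. The list of 8 neutrophil markers was also highest on that array, with a median of centred log2 values of 1.05, -0.53 and 0.45 on the WT arrays and 0.04, -0.30 and -0.80 on the knockout arrays. By gene, most of that list did not lie 1 log2 unit above both other WT arrays there. Mmp8 and Ly6g were highest on knockout replicate 1. None of the 10 plasma cell markers shared the step of 1 log2 unit on WT replicate 1. A second set of 7 members, Cd79a, Cd79b, Ly6d, Ms4a1, Blk, Bank1 and Ikzf3, was lowest on replicate 3 within both groups, as were 7.29% of all genes and 9 of the 10 plasma cell markers.

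The plasma cell list, centred in the same way, had medians of 0.39, 0.57 and -0.23 on the WT arrays and -0.06, 0.07 and -0.59 on the knockout arrays. Jchain, the joining chain of polymeric antibodies, averaged 12.50 ± 0.59 in WT and 11.61 ± 0.69 in the knockout, Xbp1 10.43 ± 0.43 and 9.92 ± 0.28, and Edem1 9.21 ± 0.30 and 9.11 ± 0.30 (SD, n = 3 each). Of the 10 genes 9 had a difference below 0, with a median of -0.56, 0 called by limma and 5 at an unadjusted p under 0.05. With the mean plasma cell score of each array as a term in the model, the median of the members was -0.14, and 22 of 30 had a difference below 0. Of all genes 47.4% had a difference below 0 with that term. Cnn3 differed by -1.16 (limma adjusted p = 0.394). In that fit Cd79a went from -1.25 to -0.16, Ms4a1 from -0.83 to -0.26, Fcmr from -0.79 to -0.50, Blk from -0.55 to -0.31, Ebf1 from -0.95 to -0.58 and Lef1 from -0.53 to -0.31. Bank1 went from -0.38 to -0.0143, Ikzf3 from -0.43 to 0.0273 and Ly6d from -0.39 to 0.64, while Pou2f2 went from -0.26 to -0.41. The score is itself lower on average in the knockout, at 0.50, 0.56 and -0.22 on the WT arrays and -0.11, 0.04 and -0.76 on the knockout arrays. With 3 arrays per group the fit cannot separate the score from the knockout. The part of antibody-secreting cells in the members' values was not tested.

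Lists of markers of other lymphoid cells had median differences near 0, with none called. Means lay below 6.29, where RMA compresses differences, for 5 of the 6 T cell and 5 of the 6 NK cell markers. The same held for 5 of the 7 plasmacytoid dendritic cell markers and 2 of the 4 mature B cell markers. The 6 measured T cell markers had a median difference of -0.06, with Cd5 at 6.81 ± 0.02 and 6.80 ± 0.04 and Cd4 at 6.03 ± 0.31 and 5.94 ± 0.21 in WT and the knockout (SD, n = 3 each), and a difference of -0.23 for Cd3e. The 7 measured markers of plasmacytoid dendritic cells, which share Spib and Ly6d with B cells, had a median difference of -0.07, with Tcf4 at 8.70 ± 0.11 and 8.72 ± 0.11, Bst2 at 6.72 ± 0.37 and 6.53 ± 0.17, and Pacsin1 at 6.24 ± 0.20 and 6.17 ± 0.08. The 4 measured markers of mature B cells had a median difference of -0.10, with Fcrla at 7.55 ± 0.73 and 7.07 ± 0.68, Cxcr5 at 6.41 ± 0.16 and 6.26 ± 0.16, and Fcer2a at 5.39 ± 0.15 and 5.34 ± 0.27. Among the 6 NK cell markers the median was 0.01, and Nkg7, also a gene of granule-bearing progenitors, read 10.24 ± 0.37 and 10.92 ± 0.24. The 3 measured erythroid markers had a median of 0.08. The array medians of the neutrophil list overlapped between the groups, and its median difference was -0.63, with 6 genes below 0 and 2 above, none called and 4 at an unadjusted p under 0.05. Its brightest genes were Ngp at 10.39 ± 1.22 and 7.95 ± 0.46, S100a8 at 8.85 ± 1.01 and 8.34 ± 0.68, and Ltf at 7.35 ± 1.04 and 6.31 ± 0.29; Mmp8 and Ly6g differed by 0.47 and 0.25. The 5 markers of granulocyte progenitors were higher on every knockout array than on every WT array, with a median of 1.15, none called and 5 at an unadjusted p under 0.05; Elane read 11.33 ± 0.33 and 12.54 ± 0.26. The arrays give no detection call, and the part of these cells in the members' values was not tested.

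**Figure D4:**
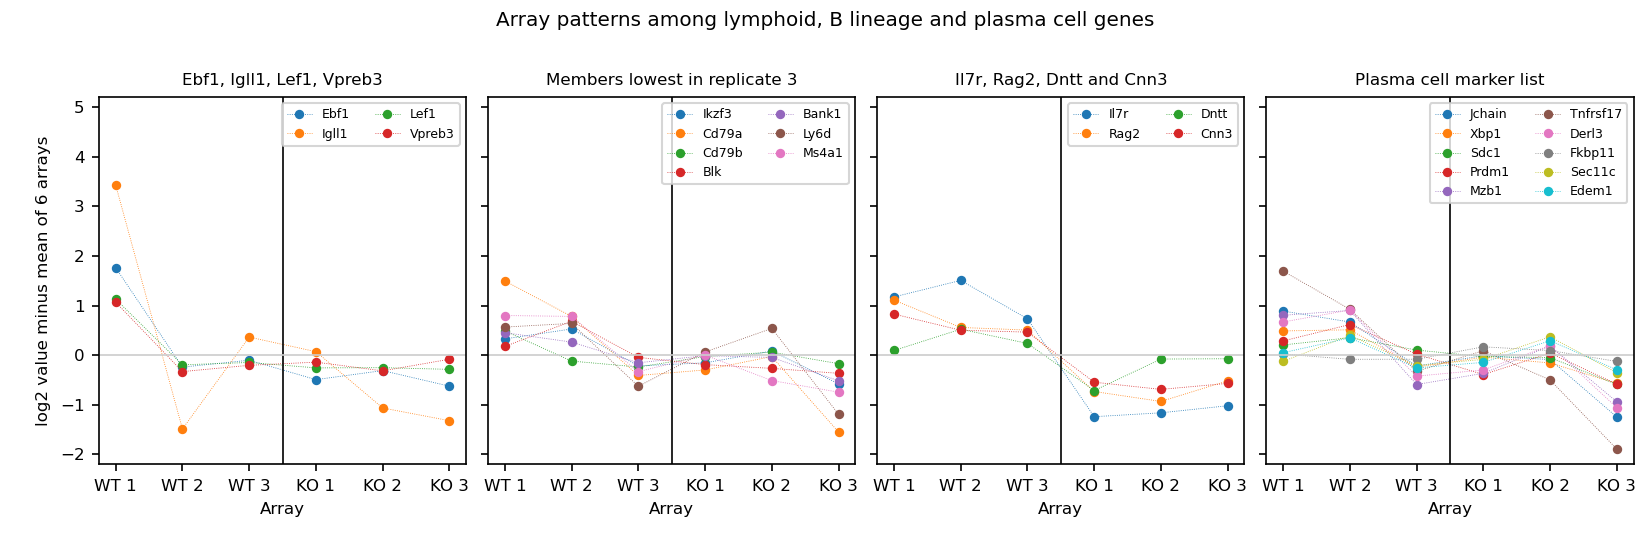
Log2 value minus the mean of the gene on 6 arrays (vertical axis) on each WT and knockout (KO) array, for 4 sets of genes; points are single arrays and dotted lines only join the points of a gene. The first set is highest on WT 1, the second set and 9 of the 10 plasma cell markers are lowest on replicate 3 of each group, and Il7r, Rag2, Dntt and Cnn3 are lower on every KO array than on every WT array.

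Other genes of early lymphoid and B cell development were read on the same 6 arrays. Their list was also chosen with earlier results of these data known. Its counts therefore describe it and do not support a direction. Of 45 listed genes that are not members, 39 were measured, with a median of -0.08. A difference below 0 was found for 28 of them, against 45.3% of all genes. Limma called 2, both lower, against 0.0451% of all genes called lower. At an unadjusted p under 0.05 by limma 5 were lower and 1 higher, against 3.08% and 5.03% of all genes. Il7r, the receptor chain on which early B and T cells depend, stood at 9.93, 10.27 and 9.49 in WT and 7.52, 7.60 and 7.74 in the knockout and fell by 2.28 (adjusted p = 0.00672). Rag2, a subunit of the recombinase of antigen receptor genes, stood at 8.35, 7.80 and 7.74 in WT and 6.51, 6.31 and 6.72 in the knockout and fell by 1.45 (adjusted p = 0.0455). The groups of neither gene overlapped. Il7r kept its call in 5 of the 6 fits with 1 array left out, losing it without knockout replicate 1 (adjusted p = 0.0606), and Rag2 in 0, where its adjusted p lay between 0.0725 and 0.213.

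Dntt, the terminal transferase that adds bases at antigen receptor joints, differed by -0.57 (SE 0.19, limma adjusted p = 0.510), and its groups did not overlap; without knockout replicate 1 it was -0.36. Flt3, a cytokine receptor that supports lymphoid-primed progenitors, differed by -0.42 (SE 0.16, limma adjusted p = 0.563), and its groups met at 11.18 in both. Pik3ap1, the adaptor BCAP that couples the B cell receptor to PI3 kinase, read 9.27, 9.42 and 9.07 in WT and 8.75, 8.69 and 8.86 in the knockout, a difference of -0.49 (SE 0.12, limma adjusted p = 0.346). Ccr7, a homing receptor of lymphocytes, read 7.31, 6.93 and 7.10 in WT and 7.80, 7.53 and 7.67 in the knockout, a difference of 0.56 (SE 0.13, limma adjusted p = 0.303). Foxo1, which works with EBF1 upstream of Il7r and the recombinase genes, differed by -0.07 (95% interval -0.31 to 0.18). Pou2af1 differed by -0.89 and Irf4 by -0.67 (limma adjusted p = 0.663 and 0.745), both with groups that overlapped. Each was lowest on replicate 3 within both groups. Rag1 is not analysed here. Foxo1, Ikzf1 and Tcf3 had intervals that include 0 and exclude a fall of the size of Il7r or Rag2.

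The Id proteins bind E proteins and keep them from DNA, so they oppose E2A in lymphoid priming. Id1 differed by 0.23 (95% interval -0.10 to 0.56; 0.0892 without WT replicate 2), Id2 by 0.21 (95% interval -0.52 to 0.94) and Id3 by -0.11 (95% interval -0.46 to 0.25). Knockout replicate 1 had the highest Id2 value, 9.48, against 8.59 and 8.09 on the other knockout arrays and between 8.11 and 8.73 in WT. None of the 3 passed by limma, and 0 had an unadjusted p under 0.05.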

How the data were processed

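The deposited table holds log2 expression values of 41345 probe sets; per the submitters' processing notes the authors used RMA and oligo (no version listed). RMA subtracts background and makes the arrays' distributions equal, and it compresses differences of dim probe sets. The genome build is not given in the sources used here. GEO's platform annotation gave 1 symbol for 23521 probe sets, several for 1814 and none here for 16010; the latter were left out. Entrez identifiers of 23328 were found in RefSeq's gene table and changed 0 symbols. Each gene was represented by its brightest probe set on average, giving 22180 genes. No filter on low values was applied.

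Groups were compared with limma 3.58.1 in R 4.3.3 (lmFit, eBayes, group as the only term), with Benjamini-Hochberg adjustment over all genes; a difference is the knockout mean less the WT mean, SDs are between 3 arrays, and intervals are 95% limits of the moderated fit. The test was checked on simulated data. The members, lists, motifs and alternatives were chosen with earlier results of these data known. The rule for named genes took all members, with array values for those with an unadjusted p under 0.05 or a difference of at least 0.5 and for Ebf1, Pax5, Ikzf1, Tcf3, Igll1 and Cd79a, chosen early lymphoid genes and those with the smallest unadjusted p, and the 3 brightest markers of each cell type. Kit, Slamf1, Mmp8, Ly6g, Pou2af1, Irf4, array values of Ly6d, Cd79b, Vpreb1, Vpreb3 and Pou2f2 and the sets by array pattern were added after the values were seen. Alternatives were another quantile normalization, centring on the 11090 brighter genes, testing those alone, averaging the probe sets of a gene, testing all probe sets, array weights, trended robust eBayes, the replicate number as a block, a plasma cell score as a term, other thresholds, and each array left out.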

Additional observations from a re-analysis of the deposited data

How the results depend on the processing

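The count of 16 genes was 22 with centring on brighter genes, 23 among brighter genes, 25 with trend and robust settings, 3 over all probe sets, 26 at a threshold of 0.1 and 56 at an unadjusted p under 0.05 with 2-fold change; 1 array left out gave 0 to 8 (1356 to 1969 genes at an unadjusted p under 0.05). With the plasma cell score it was 0, with 941 genes at an unadjusted p under 0.05. The cause of these moves was not tested. Testing all probe sets adjusts over more features and also refits eBayes on them, and these 2 parts were not told apart. The count of members, 1, was 0 over all probe sets, with the score and with any 1 array left out (0 to 0), and 2, Cnn3 and Cd79a, by unadjusted p and fold. In the list of other early lymphoid genes the count of 2 was 0 over all probe sets and with the score, and 0 to 1 with 1 array left out. The median of the members, -0.33, was -0.14 with the score and between -0.39 and -0.26 under the other settings that keep all arrays; with 1 array left out it lay between -0.42 and -0.21.

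Same-numbered arrays did not all deviate together from their group means (r across genes 0.29, 0.02 and -0.14 for numbers 1, 2 and 3), and not every array correlated best with its own number, so the numbers were not taken as pairs. With the replicate block 7 genes passed, 0 of them members and 1 in the other list; Cnn3 had an adjusted p of 0.0618.

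Of the 30 members 15 kept their sign in every alternative run, all 10 at -0.5 or below among them, but not their size: Cd79a was -0.16 and Ms4a1 -0.26 with the plasma cell score, and Igll1 was -0.21 and Lef1 -0.0937 without WT replicate 1. The other 15 include those nearest 0. With array weights Ikzf1 was 0.035, Bcl11a 0.0507 and Lax1 0.0301. Notch1 was -0.0438 with quantiles again and -0.0419 with centring. With the plasma cell score Ikzf3 was 0.0273, Vpreb1 0.17, Cd79b 0.13, Blnk 0.10, Lax1 0.18, Ly6d 0.64 and Cd37 0.0384. With 1 array left out the range was -0.11 to 0.08 for Ikzf1, -0.15 to 0.0685 for Tcf3, -0.0804 to 0.0925 for Bcl11a, -0.10 to 0.15 for Notch1, -0.24 to 0.0324 for Ets1, -0.45 to 0.0856 for Pax5, -0.25 to 0.10 for Vpreb1, -0.61 to 0.088 for Vpreb3, -0.23 to 0.13 for Cd79b, -0.43 to 0.14 for Blnk, -0.21 to 0.13 for Lax1, -0.80 to 0.11 for Ly6d, -0.14 to 0.0756 for Cd22 and -0.11 to 0.0656 for Cd37. For Id2 it was -0.17 to 0.53 and for Id3 -0.23 to 0.0269. Signal near background limits the 9 members whose mean lay below 6.29.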
